A study of Leymus chinensis with 14 samples.

Results

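Pentatricopeptide repeat (PPR) loci of sheepgrass, Leymus chinensis, are described here across leaves grown under normal or low light with and without salt. A locus was counted as a PPR locus when at least 1 of its assembled transcripts had a Swiss-Prot best hit whose first full name contains "Pentatricopeptide repeat-containing". This gave 236 of 28589 loci (0.825%) after loci with a fungal best hit were dropped. The table used here is as long as the row limit of an older spreadsheet format and may hold part of the assembly, so this count and share describe the table and not the whole family. Among them, 40 had a name with "chloroplastic", 60 had a name with "mitochondrial" and 136 had a name with neither word.

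PPR proteins are a very large family in land plants. They are encoded in the nucleus, and most are imported into chloroplasts or mitochondria, where a tandem array of short helical repeats reads a stretch of organelle RNA. Members of the P class mostly stabilise, process, splice or help translate organelle transcripts. Members of the PLS class, many of them ending in a DYW domain, mostly specify the cytidines that are edited to uridine.

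Leaf RNA of 3-week-old seedlings was sequenced in 14 libraries of 5 groups, all grown on Murashige and Skoog (MS) medium. The normal-light groups were a check without added salt (3 libraries), low salt (3 libraries) and high salt (3 libraries), and the low-light groups were a check without added salt (3 libraries) and high salt (2 libraries). The labels give neither the salt concentrations nor the light levels, and nothing in them says that replicates came from separate plants or pools, so the p-values speak of the spread among the sequenced libraries only, which may be technical. The genotype is not named beyond the species.

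Every value is an abundance in the deposited unit, which is not named but is of a kind with TPM or FPKM, summed over the transcripts of a locus. Read depth is unknown, and the deposited values sum to between 470162 and 581690 in a library. Replicates of a group correlated across loci with r from 0.846 to 0.953, and high-salt replicate 3 at normal light had the highest PPR values of its group. Differences are log2 changes on the log2(abundance + 1) scale, which understates the change of loci with low abundance. They were tested with limma in 1 fit over all 20371 loci with an abundance of at least 1 in at least 2 libraries, and a locus was called at an adjusted p below 0.05. Of the 236 PPR loci, 196 entered the test. The other 40 reached at most 5.37 in any library, and 1 of them was listed at 0 in every library. In bulk leaf RNA a lower share of a cell type and less RNA per cell cannot be told apart.

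PPR transcripts were of low abundance. The median PPR locus that was tested had a mean of 2.57 over all libraries, against 4.15 for all tested loci. Among tested and untested members together, 88 had a mean under 1 and 10 a mean of at least 50. By compartment, the median of the mean abundances was 8.50 for chloroplastic names, 1.35 for mitochondrial names and 1.51 for names with neither. Counting only the transcripts that carry the PPR name, these medians were 7.21, 1.35 and 1.03, so the order of the last pair turned. Whether the deposited values are per transcript length is not given, so these levels describe the table and are not a comparison per molecule. The protein best hits of the members had a median identity of 46.2% to the named protein, with 65 members under 40%, so a name marks the family more surely than the exact ortholog. The Pfam annotation gave a PPR repeat to 219 of the 236 members and a DYW domain to 19, of which 6 had chloroplastic and 3 mitochondrial names. The best hit in the Nr protein database came from Aegilops for 168 members, from Hordeum for 26 and from Triticum for 22, which are all relatives in the wheat tribe.

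Some loci join a PPR-named transcript with abundant transcripts of another name or of none. In 28 members the PPR-named transcripts made up less than 50% of the abundance, and these 28 loci held 50.9% of the abundance summed over all members. The locus g853, named for At3g23020, had a mean of 639.9, the highest of all members, but 0.413% of it came from PPR-named transcripts, 53.5% from transcripts without a name and 46.1% from transcripts named for a ubiquitin-conjugating enzyme. Every test was therefore repeated on PPR-named transcripts alone, and a locus of this kind is marked as mixed where it is named below. In PPR-named transcripts alone, the summed abundance of the family was between 0.186% and 0.245% of a library in the normal-light check and between 0.290% and 0.403% in the low-light check, with no overlap. The sums overlapped for chloroplastic names (645 to 778.3 against 691.1 to 967.5), but not for mitochondrial names or names with neither word. The median over all tested loci also rose without overlap (2.67 to 3.10 against 3.66 to 4.29), so the gain cannot be read as particular to PPR loci.

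Low light without added salt raised more PPR loci than any other condition compared with the normal-light check. Of 196 tested members 38 rose and 2 fell, which is 19.4% higher, against 10.8% higher (2200 loci) and 4.33% lower (883 loci) among all 20371 tested loci. PPR loci had a median log2 change of 0.64, and 0.34 was the median over the whole table. The 38 loci that rose carried 36 different names and changed by 0.74 to 1.65, with a median of 1.15. The number of PPR loci with an abundance of at least 1 was 112, 124 and 114 in the check libraries at normal light and 177, 187 and 157 at low light. The same count over all loci was not made. The median abundance over all tested loci was also higher, from 2.67 to 3.10 in the normal-light check and from 3.66 to 4.29 in the low-light check. The gain in this count therefore cannot be read as particular to PPR loci.

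The rise at low light was counted most often among mitochondrial names. Of 50 tested loci with a mitochondrial name 18 rose and 0 fell, and in 36 of the 50 all 3 low-light check libraries lay above all 3 normal-light check libraries (25.9% of all tested loci did so, and 8.32% lay lower in all 3). Of 38 tested loci with a chloroplastic name 4 rose and 1 fell, and of those with neither word 16 rose and 1 fell. Median log2 changes were 0.74, 0.55 and 0.63, so that the chloroplastic median lay 0.19 below the mitochondrial one. Among members with an abundance of at least 1 in every library, 12 of 22 mitochondrial and 3 of 28 chloroplastic loci rose. The share of all loci that rose under this stricter filter was not counted, so these counts have no background beside them. The median tested mitochondrial locus had an abundance of 1.00 to 1.22 in the normal-light check and 1.94 to 2.88 in the low-light check. The median tested chloroplastic locus had 7.69 to 8.47 and 9.30 to 14.4. Neither pair of ranges overlapped, nor did the median over all loci (2.67 to 3.10 against 3.66 to 4.29). After median-of-ratios scaling the mitochondrial ranges stayed apart (1.18 to 1.62 against 1.70 to 2.43), and the chloroplastic ranges overlapped (9.58 to 10.23 against 7.70 to 13.5). Chloroplastic and mitochondrial loci are not replicates of a condition, and the difference between the classes has no test. With a pseudocount of 0.1 in place of 1, the difference between the class medians was -0.60.

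**Figure D1:**
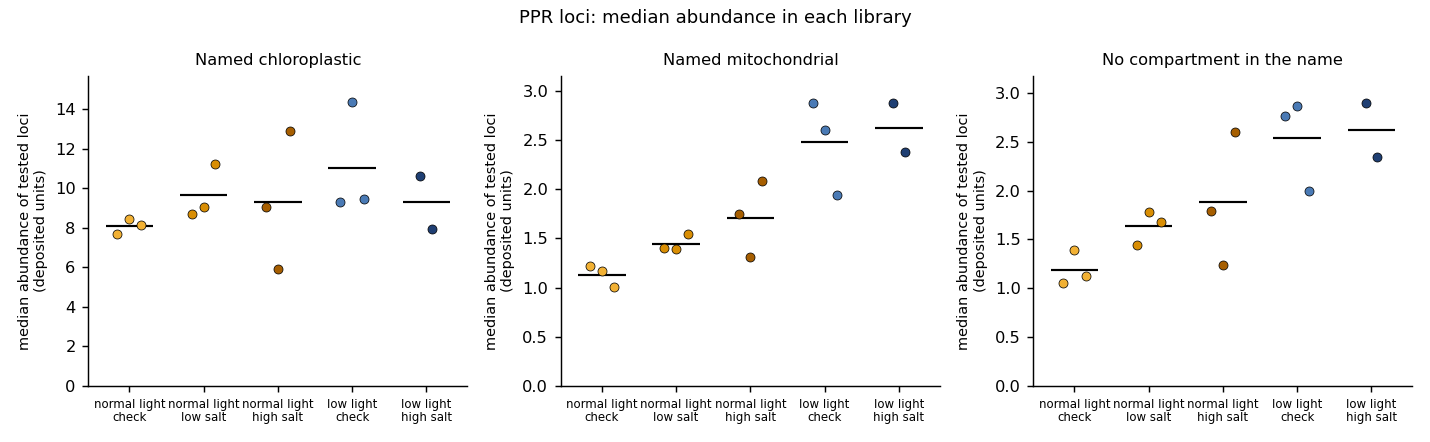
Median abundance of the tested PPR loci in each library (vertical axis, deposited units, starting at 0) for names with chloroplastic, with mitochondrial and with neither word; points are libraries and the line is the mean of a group. The mitochondrial medians of the low-light check (1.94 to 2.88) lie above those of the normal-light check (1.00 to 1.22).

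The counts depended on how libraries were scaled. The median tested locus was itself higher by 0.34 at low light, by 0.29 with high salt and by 0.38 with both stresses. With median-of-ratios scaling, which brings these shifts to 0.03, 0.03 and 0.04, 11 PPR loci rose and 6 fell at low light, against 3.62% of all tested loci higher and 7.08% lower. Relative to the median of all tested loci, mitochondrial names lay 0.40 higher both as deposited and scaled, while chloroplastic names lay 0.21 higher as deposited and 0.07 higher scaled. Of the 11 scaled calls 6 were mitochondrial and 1 chloroplastic, the mixed locus g2115. Of the 6 that fell after scaling 4 were chloroplastic. The count of 40 calls was 8 without normal-light check replicate 1, 10 without normal-light check replicate 3, 18 without low-light check replicate 2, and between 29 and 44 without any other library. On PPR-named transcripts alone 37 rose and 1 fell, and 32 of those 37 were among the 38, with the same 10.8% and 4.33% over the whole table.

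**Figure D2:**
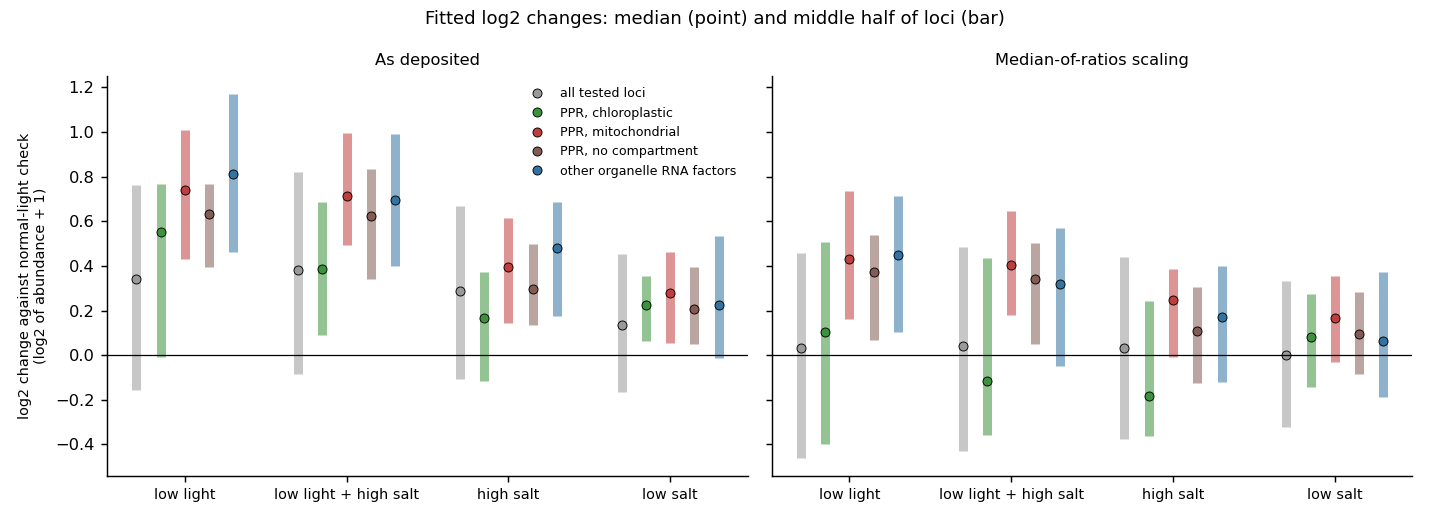
Fitted log2 changes against the normal-light check (vertical axis, on log2 of abundance + 1) for 4 conditions, as deposited (left) and after median-of-ratios scaling (right); points are medians over loci and bars span the first to the third quartile, for all tested loci, the PPR loci by the compartment in their names, and other organelle RNA factors. Mitochondrial names lie above the median of all tested loci in each condition and scaling, and at low light their median is 0.74 as deposited.

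Among the mitochondrial loci, g20411 is named for At4g35850 and is 1 of the 4 most abundant. Its abundance was 5.11, 10.14 and 5.94 in the normal-light check and 21.4, 25.7 and 17.3 in the low-light check, a log2 change of 1.51 (SE 0.27, limma adjusted p = 0.00501). High-salt libraries at normal light held 14.5, 12.3 and 20.3, and the low-light high-salt libraries 22.3 and 17.1. Every low-light library thus lay above every normal-light check library, and the high-salt libraries at normal light lay between the checks or overlapped the low-light check.

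The locus g20498, named for At3g02490, had 3.42, 4.14 and 4.61 in the normal-light check and 8.88, 11.6 and 12.6 in the low-light check (log2 change 1.25, SE 0.22, limma adjusted p = 0.00438). Low-salt libraries had 6.15, 6.55 and 7.75 and high-salt libraries 6.93, 7.11 and 8.35. No normal-light library with salt overlapped the normal-light check, although neither salt comparison at normal light passed the threshold for this locus (adjusted p = 0.0725 for high salt).

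The locus g21254, named for At1g26460, had 11.4, 15.4 and 12.1 in the normal-light check and 26.1, 26.9 and 24.9 in the low-light check (log2 change 0.96, SE 0.18, limma adjusted p = 0.00579). With high salt at low light it had 21.1 and 17.2, below each low-light check library. The interaction of light and salt at this locus was -0.86 (SE 0.27) and did not pass (adjusted p = 0.196).

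The locus g26330, named for At1g56690, had 1.27, 1.23 and 1.48 in the normal-light check and 8.81, 3.997 and 5.26 in the low-light check (log2 change 1.54, SE 0.32, limma adjusted p = 0.0103). The groups did not overlap, and low-light replicate 1 was the highest library of all. The locus g9673, named for At2g37230 with no compartment, had 3.12, 3.09 and 3.57 against 7.36, 10.09 and 12.7 (log2 change 1.35, SE 0.26, limma adjusted p = 0.00684). These 5 loci stayed past the threshold after median-of-ratios scaling, with adjusted p from 0.0155 to 0.0447, and under every omission of 1 library. Fitted on the compared groups alone, g26330 had an adjusted p of 0.0507.

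**Figure D3:**
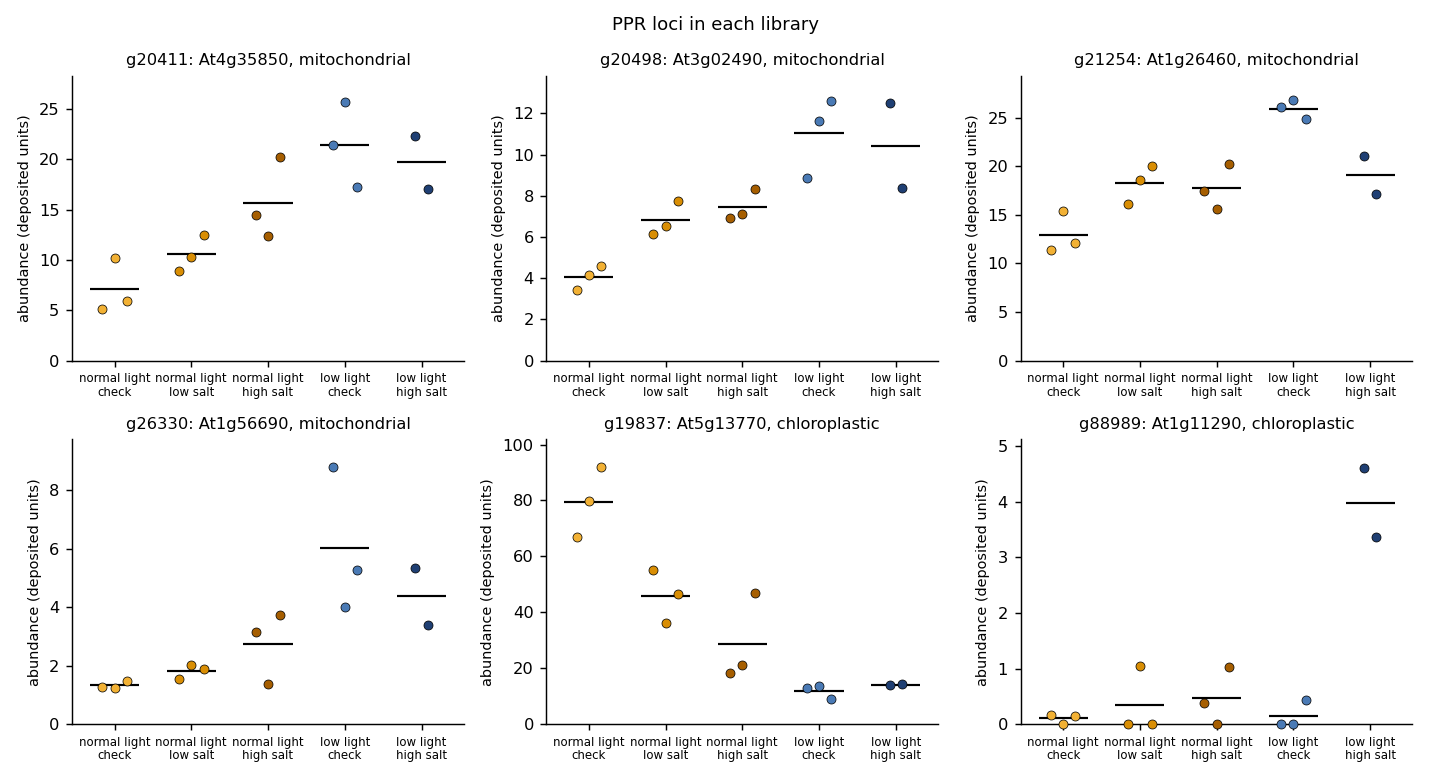
Abundance of 6 PPR loci in each library (vertical axes, deposited units, starting at 0); points are libraries and the line is the mean of a group. The 4 mitochondrial loci are higher in the low-light check than in the normal-light check, g19837 falls from 66.9 to 91.9 in the normal-light check to at most 13.5 in the low-light check, and g88989 exceeds 3 in the 2 low-light high-salt libraries alone.

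Other mitochondrial names that rose at low light include g21081, named for PNM1, which in Arabidopsis is found in mitochondria and the nucleus. It had 5.71, 6.16 and 5.66 in the normal-light check and 13.1, 19.0 and 11.7 in the low-light check (log2 change 1.16, SE 0.25, limma adjusted p = 0.0117). Both loci named for At3g49240 (EMB1796) rose, g19387 by 1.52 (SE 0.34) and the mixed locus g1842 by 0.76 (SE 0.20), but the PPR-named transcripts of g1842 alone did not pass (log2 change 0.53, adjusted p = 0.204). The locus g8780, named for PPR40 (At3g16890), a complex III-associated protein whose loss makes Arabidopsis sensitive to salt and abscisic acid, was of low abundance. It had 0.645, 0.809 and 1.04 in the normal-light check, 0.751, 0.714 and 2.02 with high salt and 2.60, 1.71 and 1.32 at low light. Its log2 changes of 0.19 with high salt and 0.63 at low light did not pass (adjusted p = 0.735 and 0.165).

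Loci with neither word in the name and a few lower-abundance mitochondrial loci also rose. The locus g1301, named for At5g39680 (EMB2744), had 0.610, 1.44 and 0.436 in the normal-light check and 2.52, 5.37 and 4.16 at low light (log2 change 1.45, SE 0.35, limma adjusted p = 0.0187), without overlap. The locus g26647, named for At5g08510, had 0.321, 0.874 and 0.336 against 2.07, 2.86 and 2.24 (log2 change 1.18, SE 0.28, limma adjusted p = 0.0169), again without overlap. Both were also called after scaling (adjusted p = 0.0452 and 0.0425). The mitochondrial locus g1620, named for At1g03100, had 2.42, 2.68 and 2.37 in the normal-light check, 8.02, 4.80 and 5.05 at low light and 8.93 and 6.83 with both stresses. All 5 low-light libraries lay above the normal-light check, and both changes were called (0.97 at low light, adjusted p = 0.0390, and 1.34 with both stresses, adjusted p = 0.0247). Of the 38 loci that rose, 23 had a mean under 5.

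The loci named for SLO1 and OTP43 were of low abundance and not called at low light. The locus g26746, named for At2g22410 (SLO1), an editing factor of mitochondrial transcripts in Arabidopsis, had 0.164, 0.450 and 0.332 in the normal-light check and 1.10, 2.23 and 1.17 at low light. These groups did not overlap, and the log2 change of 0.90 had an adjusted p of 0.0512. The other tested locus named for SLO1, g15470, had nearly the same identity (45.45% against 45.9%). It had 0.192, 0.376 and 0.311 against 1.33, 0.854 and 0.271, overlapping (log2 change 0.45, limma adjusted p = 0.280). The locus g15744, named for OTP43, which acts in the splicing of mitochondrial nad1 RNA, had 1.16, 1.18 and 0.904 against 2.50, 1.38 and 1.60, without overlap (log2 change 0.42, adjusted p = 0.305).

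The one unmixed member that fell at low light was g19837, a single-transcript locus with a chloroplastic name (At5g13770, 31.9% identity). Its abundance was 66.9, 79.8 and 91.9 in the normal-light check, 55.1, 36.0 and 46.6 with low salt, 18.3, 21.0 and 47.0 with high salt, 12.9, 13.5 and 8.92 at low light, and 13.9 and 14.2 with both stresses. All 11 other libraries lay below the 3 normal-light check libraries. The log2 change was -2.67 at low light (SE 0.32, limma adjusted p = 0.00117), -1.55 with high salt (SE 0.32, adjusted p = 0.0287) and -2.41 with both stresses (SE 0.35, adjusted p = 0.00344). Low salt gave -0.79 and did not pass (adjusted p = 0.340). The low-light and combined calls held under every alternative and omission run. The high-salt call was lost without normal-light check replicate 1 or 3 or high-salt replicate 1 or 2 (adjusted p from 0.0763 to 0.108). Its interaction of 1.80 (SE 0.47), the smallest adjusted p of any member, did not pass (0.147).

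The other member called lower at low light was the mixed locus g13013 (At5g48910), of whose abundance 1.61% is PPR-named and whose other transcripts are named for a protein-ribulosamine 3-kinase. The locus fell by 0.78 (SE 0.19, limma adjusted p = 0.0183), while its PPR-named transcripts gave a log2 change of 0.44 that did not pass (adjusted p = 0.246). The fall was not called without normal-light check replicate 1 or 3 (adjusted p = 0.0725 and 0.0736).

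Chloroplastic loci that rose at low light included g2367, named for ECB2 (At1g15510), which in Arabidopsis is an editing factor for chloroplast transcripts needed for early chloroplast biogenesis. It had 9.28, 12.2 and 13.8 in the normal-light check, 15.5, 21.4 and 23.1 with low salt, 23.9, 16.5 and 49.5 with high salt and 24.4, 53.7 and 31.8 at low light. All libraries under stress lay above the normal-light check. For high salt g2367 was picked as an uncalled locus without overlap, so the lack of overlap there was fixed by the choice. The low-light change of 1.504 (SE 0.38) was called (limma adjusted p = 0.0220). This change missed the threshold after scaling (0.0853) and on PPR-named transcripts alone (0.0788).

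The 3 most abundant chloroplastic members that are not mixed were not called at low light as deposited. The locus g15342 (At1g30610, EMB2279) had 94.0, 100.9 and 99.7 in the normal-light check and 153.3, 162.7 and 113.1 at low light, without overlap but with an adjusted p of 0.0892 for a log2 change of 0.52. The locus g8128 (At3g06430, EMB2750) had 86.0, 111.6 and 98.3 against 122.7, 108.9 and 117.8, with overlapping groups (log2 change 0.24, adjusted p = 0.442). The locus g17847 (At2g30100) had 113.4, 132.1 and 136.4 against 95.1, 68.1 and 55.3, with every low-light check library below the normal-light check. It was also picked as an uncalled locus without overlap at low light, so that lack of overlap was fixed by the choice. Its log2 change of -0.83 had an adjusted p of 0.0618 as deposited and 0.00565 after scaling.

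Names of chloroplast factors with a known role gave the following levels. The locus g8974, named for GUN1 (At2g31400), a factor of plastid-to-nucleus signalling, had 36.4, 43.4 and 45.1 in the normal-light check, 31.9, 31.5 and 49.2 with low salt, 41.6, 32.3 and 58.2 with high salt, 73.5, 65.9 and 50.2 at low light, and 56.5 and 55.5 with both stresses. All 5 low-light libraries lay above the normal-light check, but the low-light change of 0.58 (SE 0.25) did not pass (limma adjusted p = 0.133). The locus g20686, named for PGR3 (At4g31850), which in Arabidopsis stabilises and helps translate petL RNA, had 31.1, 33.9 and 33.2 in the normal-light check and 19.8, 16.9 and 23.5 with high salt. These groups did not overlap, but the locus was picked as an uncalled one without overlap, so this was fixed by the choice. The log2 change of -0.69 was not called as deposited (adjusted p = 0.133) but was called after scaling (adjusted p = 0.0368). At low light g20686 spread from 19.4 to 43.2.

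The locus g24084, named for OTP70 (At4g25270), had 10.93, 10.46 and 10.08 in the normal-light check, 4.85, 5.55 and 6.24 with high salt and 7.65, 6.43 and 6.05 at low light. Neither group overlapped the check, and both changes were called after scaling (adjusted p = 0.0305 for high salt and 0.0205 for low light) but not as deposited (0.0577 and 0.0915). For high salt g24084 was picked as an uncalled locus without overlap, so the lack of overlap there was fixed by the choice. The other tested locus named for OTP70, g19188, had nearly the same identity (49.2%). Its abundance was 3.53, 4.68 and 4.43 in the normal-light check, 3.29, 2.61 and 5.58 with high salt and 1.48, 3.76 and 5.46 at low light. Both groups overlapped the check there, and low light gave -0.29 (limma adjusted p = 0.599). The locus g18145, named for CRR2 (At3g46790), which in Arabidopsis acts in the processing of ndhB RNA, gave -0.51 at low light, called after scaling alone (adjusted p = 0.0324 against 0.223). A homolog of CRP1, g13074, a maize factor for petB and petD RNA, had 18.7, 20.1 and 19.0 in the normal-light check and 17.0, 21.5 and 9.90 at low light, with overlapping groups. The locus g15768, named for OTP51, a LAGLIDADG splicing factor of the ycf3 intron, had 11.5, 15.4 and 12.9 against 21.1, 32.5 and 16.5 (log2 change 0.73, adjusted p = 0.127).

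The loci named for SOT1 and EMB2654 overlapped between light levels, and the one named for DG1 did not. The locus g16066, named for SOT1 (At5g46580), which in Arabidopsis acts in the maturation of chloroplast ribosomal RNA, had 27.0, 56.2 and 44.3 in the normal-light check and 32.6, 90.9 and 62.5 at low light (log2 change 0.48, adjusted p = 0.411). The locus g269, named for EMB2654, which in Arabidopsis acts in rps12 trans-splicing, had 25.4, 32.6 and 32.5 against 57.3, 37.0 and 25.5 (log2 change 0.33, adjusted p = 0.570). The locus g8267, named for DG1, needed for early chloroplast development, had 30.7, 25.5 and 36.0 against 58.9, 38.7 and 37.3, without overlap but not called (log2 change 0.52, adjusted p = 0.176).

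Members named for editing factors of ndh and other chloroplast transcripts lay at low to moderate abundance. The loci named for OTP82 (g1961), OTP84 (g8372), OTP85 (g265) and OTP86 (g19562) gave low-light log2 changes of 0.38, 0.39, 0.05 and 1.04, and 0 of the 4 passed (adjusted p from 0.0524 to 0.927). Each is the locus of its name with the highest identity. A second OTP84-named locus, g8946 (40.3% identity), had 0.458, 0.389 and 0.449 in the normal-light check and 2.15, 1.91 and 1.23 at low light and rose (log2 change 0.93, SE 0.25, limma adjusted p = 0.0287). The third tested locus of that name, g13446, gave 0.88 (adjusted p = 0.1004), and the other OTP82-named loci, g13328 and g23863, gave 0.75 and 0.29 (adjusted p = 0.0627 and 0.509). Among the 18 tested DYW-domain members, 2 rose and 1 fell at low light, with a median of 0.69, a share of 11.1% higher that is near the 10.8% of all tested loci. The 1 that fell was the mixed locus g13013.

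Mixed loci changed their reading once PPR-named transcripts were taken alone. The locus g2115 is named for CRR21 (At5g55740), an editing factor of ndhD in Arabidopsis, and its sum of 27.7, 30.1 and 29.7 in the normal-light check rose to 67.0, 84.0 and 103.3 at low light (log2 change 1.49, limma adjusted p = 0.00276). Of that abundance 10.7% was PPR-named, and its other transcripts were named for the cytosolic ribosomal protein L24. The PPR-named transcripts had 6.90, 8.15 and 8.38 in the normal-light check and 8.82, 7.71 and 6.16 at low light, overlapping, with a log2 change of -0.05 (adjusted p = 0.933).

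The reverse was seen at g1417, named chloroplastic for At3g48250, which is known in Arabidopsis as BIR6 and acts there in the splicing of mitochondrial nad7. The locus sum, of which 91.0% came from transcripts without a name and 3.43% from ones named for a DEAD-box RNA helicase, gave -0.91 at low light and was not called (adjusted p = 0.180). The PPR-named transcripts had 1.82, 2.84 and 1.47 in the normal-light check and 6.36, 13.5 and 11.03 at low light, and rose by 1.86 (limma adjusted p = 0.0153). At g8671, named for pTAC2 (At1g74850), a subunit of the plastid-encoded RNA polymerase complex, the PPR-named transcripts had 17.5, 24.0 and 16.5 against 49.9, 55.5 and 34.7 and rose by 1.22 (adjusted p = 0.0277). The sum of that locus, which also holds transcripts named for the methyltransferase N6AMT1, gave 0.65 and was not called (adjusted p = 0.0718).

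**Figure D4:**
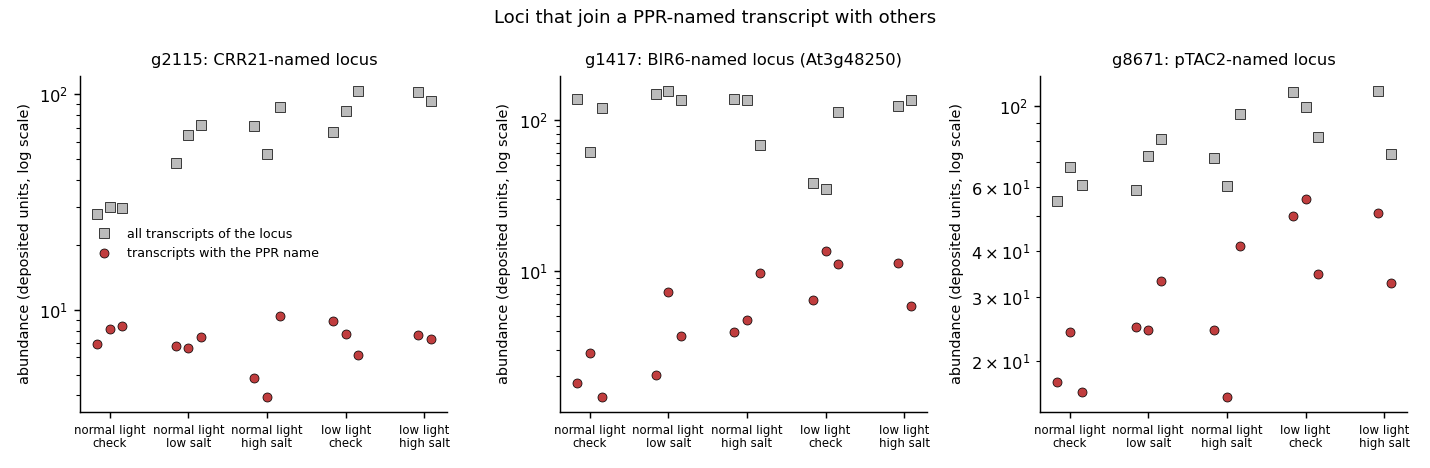
Abundance in each library of 3 mixed loci (vertical axes, deposited units, log scale), with squares for all transcripts of the locus and circles for its PPR-named transcripts. At g2115 the sum rises at low light and the PPR-named transcripts stay between 3.94 and 9.38 in all libraries, while at g1417 and g8671 the PPR-named transcripts are higher at low light than in the normal-light check.

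Loci with the same best hit did not always move together. Of 23 names with at least 2 tested loci, 1 had every locus called at low light, 9 had some and 13 had 0. Of 4 loci named for At2g01860 (EMB975), g84068 had 1.14, 1.18 and 1.12 in the normal-light check and 3.59, 4.71 and 3.44 at low light (log2 change 1.19, SE 0.29, limma adjusted p = 0.0200). The locus g83746, with the same identity of 57.2% to the protein, had 3.73, 1.71 and 2.93 against 3.72, 3.09 and 2.61 (log2 change 0.16, adjusted p = 0.784). The locus g20889, named for At4g21190 (EMB1417), showed the largest rise among the locus sums called at low light. It went from 3.27, 4.95 and 5.38 to 20.7, 17.9 and 11.4 (log2 change 1.65, SE 0.36, adjusted p = 0.0114). The second locus of that name, g20872, gave 0.07 (adjusted p = 0.942). The difference between copies was not tested, and near-identical copies may share reads.

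High salt at normal light called few PPR loci. Of 196 members 2 rose and 1 fell, against 3.03% higher and 0.982% lower among all tested loci, and the PPR median of 0.30 was close to the 0.29 of all tested loci. The 2 that rose were the mixed locus g2115 and g15782, named for At2g17033, which had 7.71, 10.6 and 17.8 in the check and 32.4, 34.6 and 26.3 with high salt (log2 change 1.37, limma adjusted p = 0.0426). On PPR-named transcripts alone 1 of the 2 was also called higher. Those of g2115 had 6.90, 8.15 and 8.38 in the check and 4.83, 3.94 and 9.38 with high salt, overlapping. After scaling 0 rose and 3 fell (0.776% of all tested loci higher, 2.04% lower), and all 3, g19837, g24084 and g20686, had chloroplastic names. The median was 0.17 for chloroplastic and 0.40 for mitochondrial names as deposited, and -0.18 and 0.25 after scaling. The count of 3 was 0 without normal-light check replicate 1 or 3 or high-salt replicate 1, 1 without high-salt replicate 2 and 5 without normal-light check replicate 2. The call at g15782 was lost in 9 of 14 omissions of a library and after scaling (adjusted p = 0.115).

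Low salt called 0 PPR loci by limma at an adjusted p, against 0.0295% higher and 0.0589% lower among all tested loci. At an unadjusted p below 0.05, 16 of 196 passed, against 12.1% of all tested loci. Medians were 0.24 for PPR loci and 0.13 for all tested loci. High against low salt also called 0 members by limma, against 0.00982% higher and 0.0393% lower among all tested loci, with 13 at an unadjusted p below 0.05 against 10.9% of all tested loci. The locus g15782 had 19.1, 11.8 and 19.1 with low salt and 32.4, 34.6 and 26.3 with high salt, without overlap. It was picked here as an uncalled locus without overlap, so this was fixed by the choice.

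With low light and high salt together, 15 of 196 tested members rose and 1 fell against the normal-light check. Among all tested loci 6.59% rose and 2.03% fell, so the share of members that rose was near that of all tested loci. Of the 15, 11 had also risen at low light alone, and the comparisons share their check libraries. Mixed loci made up 3 of the 15, and 12 of the 15 were also called higher on PPR-named transcripts alone. Mitochondrial names gave 7 of the 15, from 50 tested loci, and chloroplastic names 3, from 38 tested loci. The median was 0.71 for mitochondrial names, 0.39 for chloroplastic names, which became -0.11 after scaling, and 0.38 for all tested loci. After scaling 3 rose and 2 fell, which are lower shares than the 2.44% higher and 4.28% lower among all tested loci. The group has 2 libraries, and the count of 16 was 1 without low-light high-salt replicate 1, 4 without its replicate 2, 3 without normal-light check replicate 1 and 5 without normal-light check replicate 3. The mitochondrial locus g83449 (At3g13160) rose from 0.317, 0.658 and 0.242 to 2.84 and 1.90 (log2 change 1.26, limma adjusted p = 0.0240), and g9929 (At3g47840) from 2.37, 2.77 and 2.20 to 6.995 and 6.162 (log2 change 1.14, adjusted p = 0.0202). Both calls were lost without either low-light high-salt library or without normal-light check replicate 1 or 3 (adjusted p from 0.0674 to 0.227).

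The locus g88989 was read in low-light plants with high salt and hardly elsewhere. It is a single-transcript locus with a best hit to CRR22 (At1g11290, 41.7% identity), an editing factor of chloroplast ndh transcripts in Arabidopsis. It had 4.61 and 3.37 in those 2 libraries and between 0 and 1.04 in the other 12. The change was 2.13 against the low-light check (SE 0.40, limma adjusted p = 0.0355) and 2.17 against the normal-light check (adjusted p = 0.00868). It was the 1 member called for high salt at low light, where 0.545% of all tested loci were higher and 0.0196% lower. That call was lost in 9 of 14 omissions of a library (adjusted p from 0.0515 to 0.328) after scaling (0.0544) and with a pseudocount of 0.1 (0.290), and its interaction did not pass (0.180). The 2 other loci of that name, g9745 at 4.45 to 15.9 and g26235 at 0.151 to 2.05, did not pass in any of the 3 comparisons with the normal-light check that involve low light or high salt.

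Among high-salt plants low light called 0 members by limma, against 0.520% higher and 0.0638% lower among all tested loci, and 10 passed at an unadjusted p below 0.05 (9.70% of all tested loci). The interaction of light and salt called 0 members, against 0.172% and 0.0344%, and 20 passed at an unadjusted p (14.5% of all tested loci). The median interaction was -0.34 for PPR loci and -0.25 for all tested loci.

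Other organelle RNA factors were read beside the PPR loci. This list includes, among others, editing partners, splicing factors, ribonucleoproteins and termination factors of plastids and mitochondria. PPR loci were defined here by the phrase "Pentatricopeptide repeat-containing" in a name. The list can therefore hold PPR proteins whose names lack that phrase, and it is not a set free of the PPR family. Of 67 tested loci 20 rose (29.9%, against 10.8% of all tested loci) and 0 fell at low light (median 0.81). After scaling 3 rose (4.48%, near the 3.62% of all tested loci) and 0 fell. Multiple organellar RNA editing factors (MORF proteins) bind PPR editing factors. The MORF5-named locus g79485 rose from 4.35 ± 2.20 to 32.5 ± 19.8 (SD, n = 3 each, log2 change 2.59, limma adjusted p = 0.00530), and the MORF1-named locus g23363 from 15.6 to 40.7 (log2 change 1.34, adjusted p = 0.00902). Both were also called after scaling. The maize intron-splicing factor RNC1 (g17353) rose from 26.3 to 81.4 (log2 change 1.56, adjusted p = 0.0104), and was called after scaling as well.

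Of 47 loci for organelle ribosomal proteins 12 rose (25.5%, against 10.8% of all tested loci) and 0 fell at low light, as deposited. The summed abundance of this list overlapped between the checks. It was 3809 to 4086 in the normal-light check and 3583 to 8107 in the low-light check. Of 16 loci for organelle transcription 1 rose and 3 fell, against 10.8% and 4.33% of all tested loci. The 3 that fell were all named for the sigma factor sigE, which directs the plastid polymerase to promoters. The most abundant of them, g27029, fell from 96.7 to 2.51 (log2 change -4.90, limma adjusted p = 0.000402). Outside the PPR loci as defined here, 115 of 468 tested loci with a mitochondrial name rose at low light and 12 fell. Of 1166 such loci with a chloroplastic name 145 rose and 149 fell. Among all tested loci 10.8% rose and 4.33% fell. After scaling the mitochondrial counts were 36 and 25 and the chloroplastic counts 41 and 252, against 3.62% higher and 7.08% lower among all tested loci. The chloroplastic median went from 0.08 to -0.32.

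Marker levels moved with light too. Leaf mesophyll markers, which include Rubisco small subunits and light-harvesting proteins, summed to 84320 to 120200 in the normal-light check, 56380 to 59710 in the low-light check and 53370 to 83040 with high salt. At low light 0 of 76 such loci rose and 13 fell (median -0.80), and after scaling 34 fell. Among all tested loci 10.8% rose and 4.33% fell as deposited, and 3.62% rose and 7.08% fell after scaling. Dividing-tissue markers summed to 540.6 to 676 in the normal-light check and 494.7 to 1095 in the low-light check, and 1 of 31 rose. At low light 0 of 3 senescing-leaf and 0 of 2 root marker loci tested were called. With both stresses 1 of the 3 senescing-leaf loci rose, g82075, named for the protease SAG39 (log2 change 2.25, limma adjusted p = 0.0183), where 6.59% of all tested loci rose. The senescing-leaf markers summed to 11.4 and 17.5 in the low-light high-salt libraries, 2.80 to 4.06 in the normal-light check and 1.58 to 16.6 in the low-light check. The part of these shifts in the PPR values was not tested.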

How the data were processed

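The authors deposited 1 table of assembled transcripts with an abundance signal per transcript and library, whose unit the file headers do not name. Whole reads could not be recovered from its low values, so a count test was not used. The submitters' processing notes list StringTie 1.3.0, Bowtie 0.12.2 and HISAT2 2.0, without their roles, beside a build of the mouse genome. The extraction protocol in the labels speaks of rice leaves, while the organism is given as sheepgrass. Of 65536 lines, 4 were broken, and 3 loci at their edges (17 transcripts) were left out. Transcripts were summed to 29560 remaining loci, and 971 loci with a fungal best hit (0 of them PPR loci) were dropped, which left 28589.

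A locus was tested when 2 or more libraries held it at 1 or higher. Abundances plus a pseudocount of 1 were put on the log2 scale and fitted by limma (version 3.58.1, run in R 4.3.3), with 5 group means over all 14 libraries and a trended, robust variance. P-values were adjusted by the Benjamini-Hochberg method over all 20371 loci in each of 8 comparisons. Tables and figures were made with Python 3.11.15, pandas 2.3.3, numpy 2.4.6 and matplotlib 3.10.9. The fit was tested on simulated data with changes set into 200 of 20371 loci. For low light 4.48% of log2 changes of 1 and 68.7% of those of 2 were recovered. For the interaction 0% and 8.96% were recovered, so a count of 0 there does not show that nothing changed. More than 200 loci were called at low light in the data, so recovery there may differ. Depth is unknown, so no counting interval is given.

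Members, marker lists and pathway lists were chosen with earlier results of these data known. Named loci were picked by a rule. Per comparison it took up to 6 called members per direction. Where fewer than 3 were called in a direction, up to 3 uncalled ones were added, except for the interaction. These were ranked by fitted log2 change among members with a mean of at least 2 and groups that did not overlap. Their lack of overlap in the comparison that picked them is therefore no result. The rule also took the 4 most abundant per class and PPR proteins with a known role (39 looked for, 25 found). Not every locus that this rule picked is described above. Those left out include g85680, g257, g13348, g2363, g79306 and g27017, all picked for a known role. Loci outside this rule were chosen after their values were seen. Replicate numbers were not taken as pairs, since of 26 same-number pairs 1 correlated over 0.1. Other settings tried were a pseudocount of 0.1, scaling by library totals or by the median of ratios, no filter, a mean of at least 5, a replicate block, fits on the compared groups only, transcripts in place of loci, and each library left out. The fit on PPR-named transcripts alone was added after seeing the data. No sequences are printed, since none were in the files used here.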

Additional observations from a re-analysis of the deposited data

How the results depend on the processing

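The count of PPR loci called at low light (40) was 17 after median-of-ratios scaling, 23 with a mean of at least 5, 9 with only the groups compared and 65 for transcripts in place of loci, and 8 to 44 with a library left out. With high salt at normal light (3) it was 7 with library totals, 5 with a pseudocount of 0.1, 7 with a mean of at least 5, 0 with only the groups compared, and 0 to 5 with a library left out. With both stresses (16) it was 5 after scaling, 29 with library totals, and 1 to 24 with a library left out. With high salt at low light (1) it was 0 after scaling, with a pseudocount of 0.1, with a mean of at least 5 and with only the groups compared, and 0 to 2 with a library left out. Low light among high-salt plants gave 0 to 2 and the interaction 0 to 1 with a library left out, and 0 under every other setting run. Low salt and high against low salt gave 0 under every setting run. With the replicate number as a block, which does not pair the samples, the counts were 27 at low light, 2 with high salt, 9 with both stresses and 0 with high salt at low light, and the chloroplastic minus mitochondrial median differences were -0.19 for low light, -0.23 for high salt, -0.05 for low salt and -0.03 for high salt at low light. That difference was -0.55 (high salt) and -0.60 (low light) with a pseudocount of 0.1, and -0.62 (high salt), -0.29 (low salt) and -0.42 (low light) with a mean of at least 5. With a library left out it ranged from -0.31 to -0.10 with high salt, -0.09 to 0.03 with low salt, -0.34 to -0.08 at low light and -0.10 to 0.07 for high salt at low light. For mixed loci the direction turned when other transcripts were set aside, by the construction of that setting. At g2115 the log2 change was -0.40 and -0.39 with high salt, -0.11 and -0.14 with low salt, -0.096 and -0.049 at low light, and -0.090 and -0.052 with both stresses, for transcripts in place of loci and for PPR-named transcripts respectively. On PPR-named transcripts g13013 gave 0.44 at low light and -0.10 for high salt at low light, g20538 -0.12 for high salt at low light and g1952 0.092 with both stresses. For g1417 high salt at low light gave -0.28 on transcripts and -0.24 on PPR-named transcripts. Over all alternatives, named loci that were called gave 356 values on the same side of the threshold, 68 no longer past it and 7 reversed, and the cause of the other changes was not tested. The 2 libraries of high salt at low light and the unknown depth limit the precision.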
